A study of Homo sapiens with 6 samples.

Results

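The pregnancy-specific glycoprotein (PSG) genes described here are PSG1, PSG2, PSG3, PSG4, PSG5, PSG6, PSG7, PSG8, PSG9 and PSG11. These 10 genes were read from 6 arrays of RH30 cells, and 9 of the 10 had a transcript cluster (the set of array probes summarised as 1 transcript) that carried their symbol alone, among 22451 genes measured in that way. PSG2 had none. The family was chosen from the same arrays, on a large rise of PSG5 in the cells without MyoD, so the differences between the groups for its members are a description and carry no test.

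RH30 is a long-established cell line from a rhabdomyosarcoma, a tumor of the skeletal muscle lineage, of the alveolar, fusion-positive kind (its fusion gene is PAX3::FOXO1). All 6 arrays were of cells infected with the IκBα super-repressor (SR), a form of IκBα that blocks the transcription factor NF-κB. In 3 arrays the cells were the control (RH30-SR), and in 3 they had in addition been given a guide RNA against MyoD, the transcription factor that commits cells to muscle, and came from 1 CRISPR/Cas9 clone, number 29 (RH30-SR MyoDΔ). Cas9 or a guide in the control cells is not mentioned in the labels, and with 1 clone the deletion and other properties of that clone cannot be told apart. Values are log2 RMA values, so that a difference of 1 is a 2-fold change.

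PSG proteins are secreted members of the immunoglobulin superfamily and belong to the carcinoembryonic antigen family, whose other branch is the CEACAM proteins. They are made mainly by the syncytiotrophoblast, the fused outer layer of the placenta, and reach high levels in the blood of the mother during pregnancy. They have been described as ligands of integrins and of heparan sulfate proteoglycans and as activators of latent TGF-β, and their genes lie side by side on chromosome 19 and are very alike in sequence.

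The likeness of the genes can be read in their promoters. RefSeq promoter sequences (build GRCh38.p14) were at hand for 3 of the 10 members, PSG5, PSG4 and PSG3, which had the largest, the smallest and an intermediate change among the measured members. The 250 bases before the annotated start of each gene, all on the minus strand, lay at chr19:43186537-43186786 for PSG5, chr19:43205639-43205888 for PSG4 and chr19:42740482-42740731 for PSG3. They are shown so that the members can be compared base by base, and capitals mark CCCNCCC (a C-rich box of the kind read by SP1 and KLF proteins) and CANNTG (the E-box, the kind of site that MyoD binds), each searched on both strands.
PSG5: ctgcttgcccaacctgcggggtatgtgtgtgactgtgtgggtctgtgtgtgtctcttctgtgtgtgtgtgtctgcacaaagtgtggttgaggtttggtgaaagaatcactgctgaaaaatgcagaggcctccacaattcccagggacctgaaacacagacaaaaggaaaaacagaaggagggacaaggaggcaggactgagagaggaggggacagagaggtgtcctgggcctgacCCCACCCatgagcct
PSG4: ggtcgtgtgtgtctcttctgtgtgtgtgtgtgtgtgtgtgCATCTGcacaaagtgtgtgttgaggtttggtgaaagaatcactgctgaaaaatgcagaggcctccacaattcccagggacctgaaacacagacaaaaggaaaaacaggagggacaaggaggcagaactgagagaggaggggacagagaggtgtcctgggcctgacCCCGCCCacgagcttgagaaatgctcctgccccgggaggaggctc
PSG3: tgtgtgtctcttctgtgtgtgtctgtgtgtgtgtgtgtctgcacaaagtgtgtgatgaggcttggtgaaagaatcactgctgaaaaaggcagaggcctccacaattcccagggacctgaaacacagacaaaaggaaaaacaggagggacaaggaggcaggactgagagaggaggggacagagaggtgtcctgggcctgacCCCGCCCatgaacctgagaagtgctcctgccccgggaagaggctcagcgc

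Over windows that also take in the 50 bases after the start, PSG4 and PSG5 were identical at 250 of 256 aligned bases (97.7%), PSG3 and PSG5 at 252 of 264 (95.5%) and PSG3 and PSG4 at 278 of 295 (94.2%). Bases set against a gap were left out of these counts, so the shares do not rank the pairs by likeness. All 3 windows held 1 CCCNCCC box, a motif found in 54.1% of 35116 RefSeq promoters of the same length. The middle base of that box set PSG5 apart, with the substitution G209A from PSG4 to PSG5 (positions counted from 1 at the 5′ end of the PSG4 sequence above) and G204A from PSG3 to PSG5. PSG5 thereby read CCCACCC, a motif of 19.6% of promoters, and PSG3 and PSG4 read CCCGCCC, found in 33.1%. For the E-box, which 68.7% of promoters held, PSG5 had no match in its window, PSG3 had 1 and PSG4 had 2. PSG3 and PSG4 shared the letters CAGCTG (17.9% of promoters), at bases 270 to 275 and 275 to 280 of their windows. These fell in the last 35 bases of PSG3 and the last 30 of PSG4, which run past the end of the PSG5 window in the alignment, so that the same place was not read in PSG5.

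PSG5 had the largest change of the family. Its values were 4.13, 4.08 and 4.39 in RH30-SR and 6.27, 6.48 and 6.43 in RH30-SR MyoDΔ. Every array of the MyoDΔ clone lay above every control array, and the nearest arrays of the groups were 1.88 apart. The difference of the means was 2.19 ± 0.10 (SE, n = 3 per group), a 4.57-fold higher value in the clone. The files hold no background measure and the control mean of 4.20 was below the median of all clusters (4.29), so that it is not known whether PSG5 was above background in RH30-SR, and the fold is that of the RMA values only.

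PSG9 was next, at 4.90, 4.69 and 4.94 in RH30-SR and 5.80, 5.92 and 6.03 in RH30-SR MyoDΔ. Its mean was 1.07 ± 0.09 higher in the clone (SE, n = 3 per group), or 2.10-fold. PSG5 and PSG9 were the 2 members past 2-fold.

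**Figure D1:**
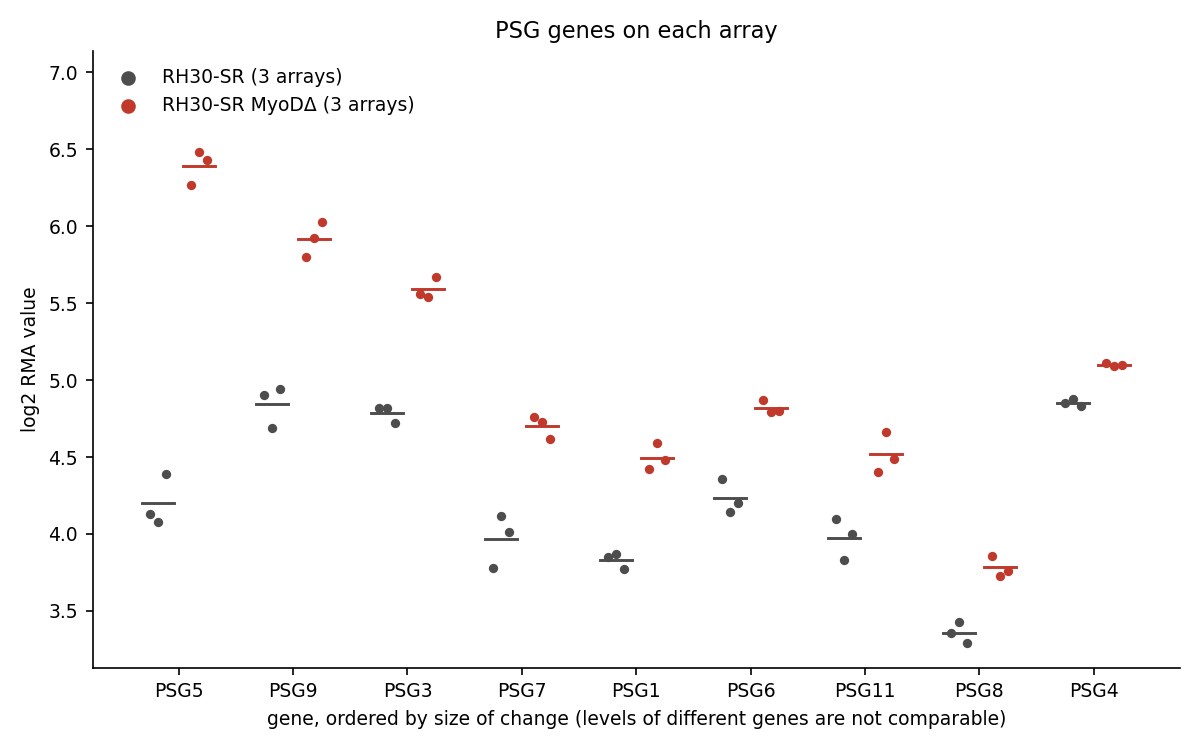
Log2 RMA values (vertical axis) of the 9 PSG genes with a transcript cluster of their own, 1 point per array, with gray for the 3 RH30-SR arrays, red for the 3 RH30-SR MyoDΔ arrays and lines for the group means. In all 9 genes the red points lie above the gray points, with the widest gap in PSG5 (1.88) and the narrowest in PSG4 (0.21).

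PSG3 read 4.82, 4.82 and 4.72 in RH30-SR and 5.56, 5.54 and 5.67 in RH30-SR MyoDΔ, a difference of 0.80 ± 0.06 (SE). PSG7 read 3.78, 4.12 and 4.01 in the control and 4.76, 4.73 and 4.62 in the clone, a difference of 0.73 ± 0.09. PSG1, often used as a recombinant protein in work on the family, read 3.85, 3.87 and 3.77 against 4.42, 4.59 and 4.48, a difference of 0.67 ± 0.06. In each of these genes the 3 arrays of the clone stood clear of the 3 control arrays by 0.50 or more on the log2 scale.

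PSG6 read 4.36, 4.14 and 4.20 in RH30-SR and 4.87, 4.79 and 4.80 in RH30-SR MyoDΔ, a difference of 0.59 ± 0.07 (SE). PSG11 read 4.10, 3.83 and 4.0 in the control and 4.4, 4.66 and 4.49 in the clone, a difference of 0.54 ± 0.09. PSG8 read 3.36, 3.43 and 3.29 in the control and 3.86, 3.73 and 3.76 in the clone, a difference of 0.42 ± 0.06. The gaps between the nearest arrays of the groups were narrower here, at 0.43 for PSG6 and 0.30 for both PSG11 and PSG8.

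PSG4 had the smallest change. It read 4.85, 4.88 and 4.83 in RH30-SR and 5.11, 5.09 and 5.10 in RH30-SR MyoDΔ, a difference of 0.25 ± 0.05 (SE) or 1.19-fold. The arrays of the clone agreed closely for this gene (SD 0.01), and the groups did not overlap.

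In order of change the family thus ran PSG5, PSG9, PSG3, PSG7, PSG1, PSG6, PSG11, PSG8 and PSG4. Of the 8 steps between neighbours in this order, 4 were smaller than the combined SE of the pair, namely those from PSG3 through PSG7, PSG1 and PSG6 to PSG11, so that these neighbours did not differ beyond their spread. The step from PSG5 to PSG9 was 1.12, which is a description only, because the family was chosen on the rise of PSG5. The other steps were 0.27 from PSG9 to PSG3, 0.12 from PSG11 to PSG8 and 0.18 from PSG8 to PSG4, with combined SEs of 0.11, 0.11 and 0.08. The combined SEs take both clusters of a pair as independent, though they were read on the same arrays. Probes differ in how strongly they respond to the same amount of RNA, so levels of different members were not compared. How far the order of the changes reflects the probes was not tested.

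The difference did not rest on 1 array. The median over the 9 members lay between 4.12 and 4.20 in the 3 RH30-SR arrays and between 4.79 and 4.87 in the 3 RH30-SR MyoDΔ arrays. When 1 array at a time was left out, the change of PSG5 stayed between 2.13 and 2.29, that of PSG9 between 1.00 and 1.13, and that of PSG4 between 0.24 and 0.26. Within RH30-SR, replicate 3 was the high array for PSG5 (4.39) and replicate 1 the high array for PSG6 (4.36) and PSG11 (4.10).

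At the thresholds of the study's methods (limma, Benjamini-Hochberg adjusted p below 0.05 and a change over 25%, which is 0.32 on the log2 scale), 8 of the 9 members were called higher in RH30-SR MyoDΔ, beside 2.82% of all 22451 genes called higher, 4.20% called lower and 7.01% called in either direction. No member was called lower. PSG4 was the member not called, because its change was under 25%. Groups that did not overlap, with every MyoDΔ array higher, were seen in 9 of 9 members and in 15.8% of all genes. The median change was 0.67 over the 9 members and -0.01 over all genes. Because this contrast chose the family, nothing is read from these counts. PSG11 fell below the threshold when RH30-SR replicate 3, MyoDΔ replicate 2 or MyoDΔ replicate 3 was left out, which left 7 members called.

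PSG2 could be read only on a cluster that carries its symbol and that of PSG5 together. That cluster read 4.11, 4.14 and 4.41 in RH30-SR and 5.12, 5.11 and 5.08 in RH30-SR MyoDΔ, a difference of 0.88 ± 0.09 (SE). As for PSG5 itself, RH30-SR replicate 3 was the high control array. The part of PSG2 in this value cannot be told apart from that of PSG5. More widely, the PSG genes are near-identical copies, and how far RNA of one member was read by the probes of another was not tested, so that which of the members changed is uncertain.

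The PSG genes stand in one block on chromosome 19, and the difference between the groups was seen along the block and none of the nearest genes on either side of it was called. In RefSeq order the measured members run PSG3, PSG8, PSG1, PSG6, PSG7, PSG11, PSG5, PSG4 and PSG9. A further pair of genes inside the block was looked at after the values of the members had been seen. PSG10P, a transcribed pseudogene between PSG8 and PSG1, read 3.08, 3.11 and 3.11 in RH30-SR and 3.64, 3.74 and 3.69 in RH30-SR MyoDΔ, a difference of 0.59 ± 0.05 (SE). LOC284344, a long noncoding RNA gene between PSG4 and PSG9, read 3.75, 3.99 and 4.02 against 4.61, 4.90 and 4.80, a difference of 0.85 ± 0.10.

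The 10 nearest named genes with a value on each side of the block were read as a comparison. Of these 20 neighbours, 0 were called by limma in either direction, beside 7.01% of all genes, and 3 had an unadjusted p below 0.05, beside 24.6% of all genes. With so few genes a count of 0 calls is near the share over all genes. The groups did not overlap in CIC, PAFAH1B3 and IRGQ, which were lower in RH30-SR MyoDΔ, and in TEX101, which was higher. Every MyoDΔ array was higher in 15.8% of all genes. The share with every MyoDΔ array lower was not computed, so nothing is read from these genes. Over the 20 neighbours the median change was -0.01. Changes ran from -0.30 for PAFAH1B3 (adjusted p = 0.0734), which encodes a subunit of platelet-activating factor acetylhydrolase, to 0.10 for CEACAM8 (adjusted p = 0.423). CEACAM8 and CEACAM1 are the nearest genes on the PSG3 side of the block, and CEACAM1 differed by 0.05 ± 0.06 (SE, adjusted p = 0.72). XRCC1, a DNA repair scaffold and the neighbour with the highest mean level, differed by -0.16 ± 0.08 (adjusted p = 0.35). The smallest change inside the block, that of PSG4 (0.25), was above the largest rise among the neighbours. This is a description, because the family was chosen on a rise of PSG5.

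**Figure D2:**
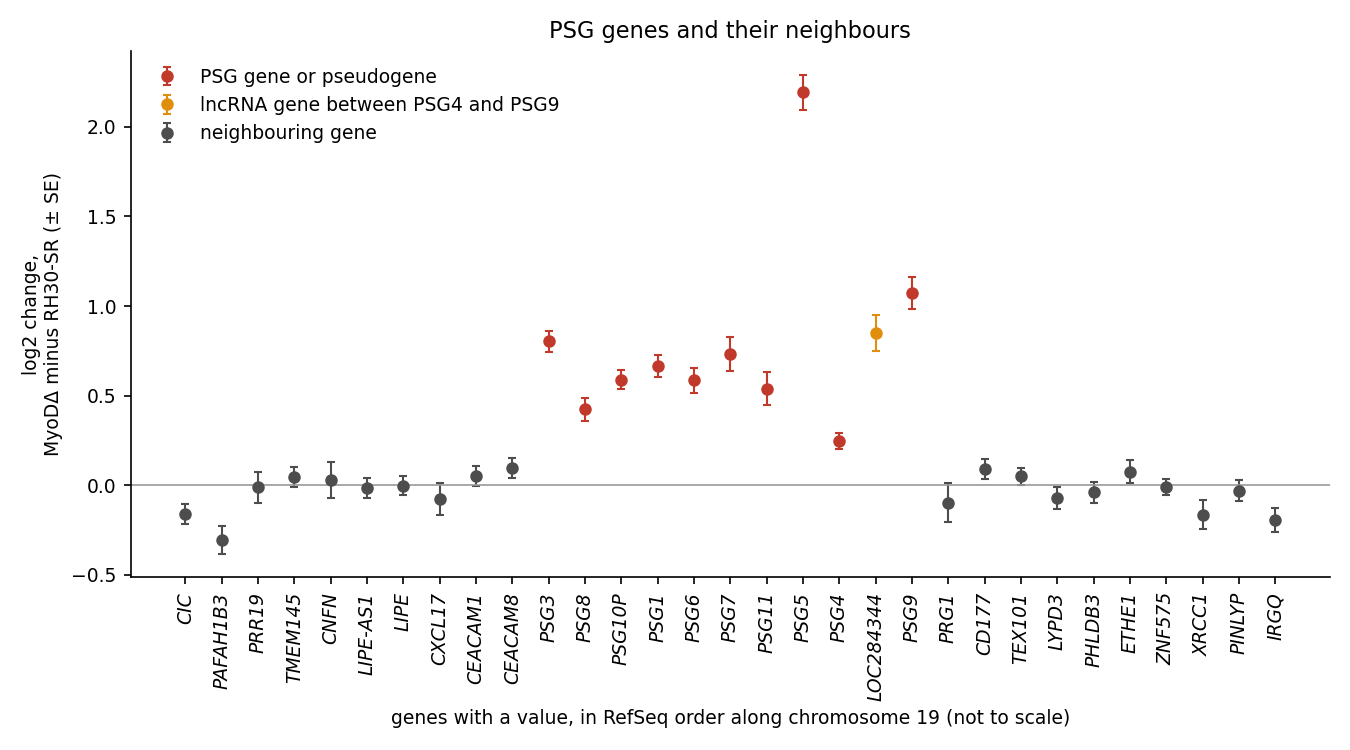
Log2 change from RH30-SR to RH30-SR MyoDΔ (vertical axis, ± SE, n = 3 arrays per group) of the PSG genes, of 1 long noncoding RNA gene between them and of the 10 nearest genes with a value on each side, in RefSeq order along chromosome 19. The PSG genes and PSG10P lie between 0.25 and 2.19, and the 20 neighbours between -0.30 and 0.10.

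The CEACAM genes are the closest relatives of the PSG genes. Of 12 measured, 0 were called by limma in either direction, and 0 had an unadjusted p below 0.05, beside 7.01% and 24.6% of all genes. With so few genes a count of 0 calls is near the share over all genes. Their changes ran from -0.08 for CEACAM16, a protein of the inner ear, to 0.10 for CEACAM8, with a median of 0.02. CEACAM4, the other of the 2 CEACAM genes with the highest mean levels, read 5.40, 5.33 and 5.42 in RH30-SR and 5.37, 5.32 and 5.63 in RH30-SR MyoDΔ, and the groups overlapped. The 95% intervals of the 12 changes lay between -0.24 and 0.26, so that a change as large as that of PSG1 (0.67) fell outside each of them.

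Other genes of the placenta were compared because the PSG genes are best known as products of trophoblast. Of 26 syncytiotrophoblast markers with a value, 0 were called higher and 2 were called lower in RH30-SR MyoDΔ. Over all genes, 2.82% were called higher and 4.20% lower. The median change of these markers was -0.01. The list had 30 entries, and CGB3, CGB5, CGB8 and CSH1 are not in the count because they had no cluster of their own. Clusters that carry CGB3, CGB5 and CGB8 together were called higher and are described below. PAPPA, a protease that cleaves insulin-like growth factor binding proteins, read 7.41, 7.36 and 7.33 in RH30-SR and 6.65, 6.45 and 6.46 in the clone, a fall of -0.85 ± 0.07 (SE, adjusted p = 0.000748). ADAM12, another metalloprotease, fell by 0.55 ± 0.05 (adjusted p = 0.000991). Both also have roles outside the placenta, ADAM12 in muscle cells among them.

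Of single genes known for the syncytiotrophoblast, GCM1, ERVW-1, CYP19A1 and CGA were not called, and are named here after their values were seen. GCM1, the transcription factor that drives its formation, read 3.29, 3.51 and 3.19 in RH30-SR and 3.30, 3.09 and 3.34 in RH30-SR MyoDΔ (adjusted p = 0.736). ERVW-1, the fusion protein syncytin, differed by -0.06 ± 0.12, CYP19A1, which makes estrogens, by -0.03 ± 0.05, and CGA, the alpha subunit shared by chorionic gonadotropin and pituitary hormones, by 0.07 ± 0.06 (adjusted p = 0.861, 0.855 and 0.61). The files give no background measure, so it was not settled whether these genes were expressed at all.

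Of 17 factors and markers of the trophoblast lineage, 1 was called higher and 0 were called lower, with a median change of -0.03. Over all genes, 2.82% were called higher and 7.01% in either direction, so 1 call in a list this short is near that share. The gene called was GATA3, a transcription factor of early trophoblast and of several other tissues. It read 5.71, 5.73 and 5.70 in RH30-SR and 6.05, 6.10 and 5.98 in RH30-SR MyoDΔ, a difference of 0.33 ± 0.05 (SE, adjusted p = 0.0134). The groups did not overlap, but the change was close to the 25% threshold, and the call was lost when RH30-SR replicate 3 (adjusted p = 0.0568), MyoDΔ replicate 1 (0.0572) or MyoDΔ replicate 2 (0.0617) was left out. TFAP2C, GATA2 and TEAD4, which are also factors of the trophoblast lineage, differed by -0.03, 0.05 and 0.03 and were not called.

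A second group of placental genes on chromosome 19 had higher values in RH30-SR MyoDΔ. CGB genes encode the beta subunit of human chorionic gonadotropin, the hormone by which pregnancy is detected, and their neighbour LHB encodes the beta subunit of luteinizing hormone. The CGB copies are so alike that 5 clusters carried the symbols of several of them. CGB3, CGB5 and CGB8 were in the syncytiotrophoblast list above. The reading of these shared rows, and the addition of CGB1, CGB2 and LHB, were decided after the values had been seen. All 6 were higher in RH30-SR MyoDΔ and past the thresholds, by 0.77 to 1.44 on the log2 scale. They are not 6 separate readings, because some clusters share the symbols CGB3, CGB5 and CGB8 and others share CGB1 and CGB2. How far CGB RNA was read by the LHB probes was not tested. The 6 rows were picked for their higher values, and 2.82% of all genes were called higher. The count is therefore a description and no p is given.

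The cluster with the symbols CGB8, CGB5 and CGB3 read 6.02, 6.19 and 6.09 in RH30-SR and 7.67, 7.61 and 7.35 in RH30-SR MyoDΔ, a difference of 1.44 ± 0.09 (SE). The clusters shared by CGB1 and CGB2 were higher by 0.98 ± 0.07 and 0.78 ± 0.08. LHB read 6.43, 6.25 and 6.11 in the control and 7.06, 7.04 and 7.0 in the clone, a difference of 0.77 ± 0.08. CGB7, a member with a cluster of its own, read 5.79, 5.89 and 5.80 in RH30-SR and 5.86, 5.91 and 5.97 in RH30-SR MyoDΔ and was not called (0.09 ± 0.06, adjusted p = 0.492).

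**Figure D3:**
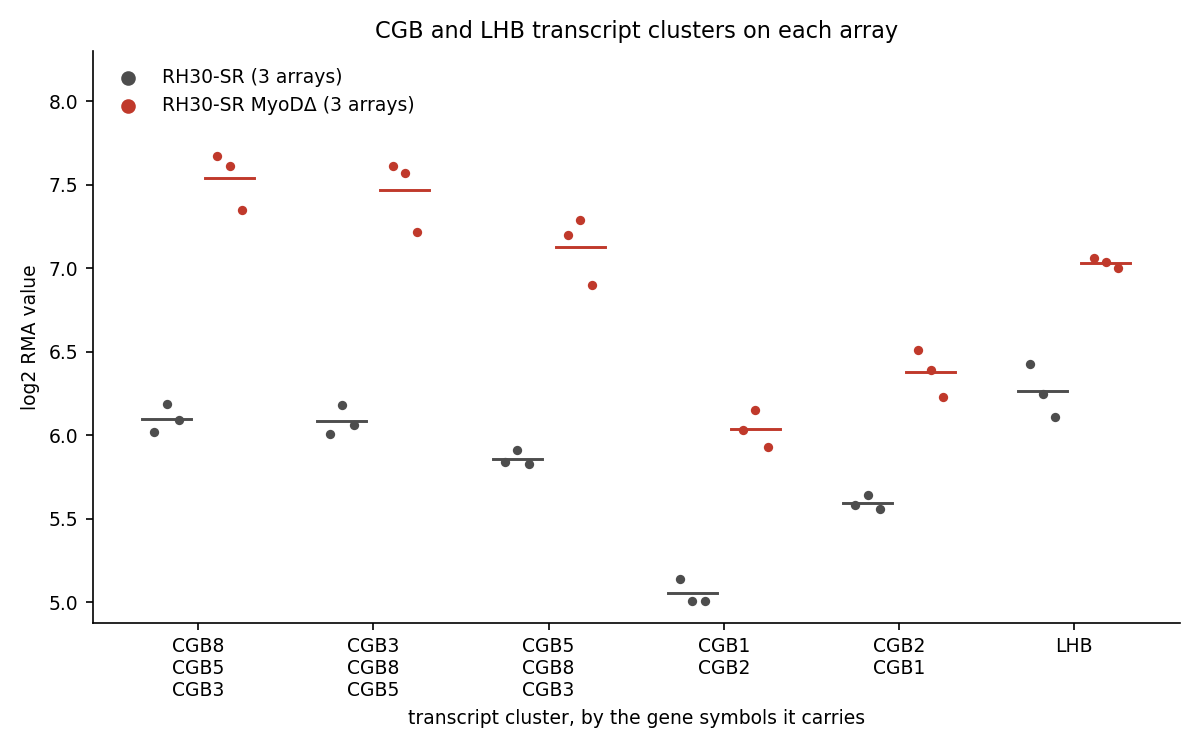
Log2 RMA values (vertical axis) of the 6 CGB and LHB transcript clusters, 1 point per array, with gray for the 3 RH30-SR arrays, red for the 3 RH30-SR MyoDΔ arrays and lines for the group means. In all 6 clusters the red points lie above the gray points, and the difference of the means runs from 0.77 for LHB to 1.44 for the cluster of CGB8, CGB5 and CGB3.

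The miRNA genes of the placenta that lie in a further cluster on chromosome 19 were also looked at after the values had been seen. Over 41 such clusters (MIR498, MIR1283 and MIR516 to MIR527), the changes ran from -0.31 to 0.45, with a median of 0.02.

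Of 13 known partners of PSG proteins measured, 2 were called higher, 2 were called lower and 9 were not called, with a median change of 0.04. Over all genes, 7.01% were called. The integrin subunits ITGB3 and ITGA5 were higher in RH30-SR MyoDΔ by 0.46 ± 0.06 and 0.35 ± 0.06 (SE, adjusted p = 0.00448 and 0.0122). ITGB3 read 7.25, 7.24 and 7.19 in the control and 7.76, 7.69 and 7.62 in the clone. Subunits in this list that can pair with ITGB3 and ITGA5, namely ITGA2B (-0.03 ± 0.06) and ITGB1 (0.22 ± 0.07), were not called (adjusted p = 0.853 and 0.135). Subunits outside the list were not read here.

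Of the heparan sulfate proteoglycans in that list, SDC3 (syndecan 3) fell from 8.22, 8.21 and 8.01 in RH30-SR to 7.45, 7.40 and 7.40 in RH30-SR MyoDΔ, by 0.73 ± 0.07 (SE, adjusted p = 0.00155). GPC1 (glypican 1) fell by 0.41 ± 0.07 (adjusted p = 0.0169). SDC1 differed by 0.27 ± 0.05 (adjusted p = 0.0291), under the 25% threshold, and SDC2 and SDC4 were not called. With RH30-SR replicate 3 or MyoDΔ replicate 1 left out, 2 partners were called in place of 4, with ITGA5 (adjusted p = 0.0538 and 0.0525) and GPC1 (0.0549 and 0.0584) lost. The call of GPC1 was lost also without MyoDΔ replicate 2 (adjusted p = 0.065) or MyoDΔ replicate 3 (adjusted p = 0.0743).

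Of 15 genes of TGF-β storage, release and response, 1 was called, beside 7.01% of all genes. By limma, 9 had an unadjusted p below 0.05, beside 24.6% of all genes, with changes in both directions. The called gene was THBS1, which encodes thrombospondin 1, an activator of latent TGF-β. It was lower in RH30-SR MyoDΔ (9.12, 9.13 and 9.12, against 9.85, 9.84 and 9.84 in RH30-SR), a difference of -0.72 ± 0.05 (SE, adjusted p = 0.000236). The median change of the list was -0.0033. TGFB3, the ligand gene in this list, differed by -0.24 ± 0.06 and was not called (adjusted p = 0.0517), though the groups did not overlap. The ligand genes TGFB1 and TGFB2, counted among the partners above, differed by -0.23 ± 0.08 and -0.04 ± 0.05 (adjusted p = 0.188 and 0.788). SMAD7, an inhibitor that TGF-β signaling induces, differed by 0.37 ± 0.09 and was not called (adjusted p = 0.0712).

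Of 6 regulators described for PSG promoters, 0 were called by limma and 2 had an unadjusted p below 0.05, beside 7.01% and 24.6% of all genes. With so few genes a count of 0 calls is near the share over all genes. The median change of the 6 was -0.04. KLF6, a zinc finger protein first described through its binding to the core promoter of a PSG gene, read 7.92, 7.97 and 7.92 in RH30-SR and 8.25, 8.20 and 8.19 in RH30-SR MyoDΔ. Its difference of 0.28 ± 0.05 (SE, adjusted p = 0.0201) was under the 25% threshold, though the groups did not overlap. SP1, which binds C-rich boxes such as those in capitals above, differed by -0.11 ± 0.05 (adjusted p = 0.297).

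**Figure D4:**
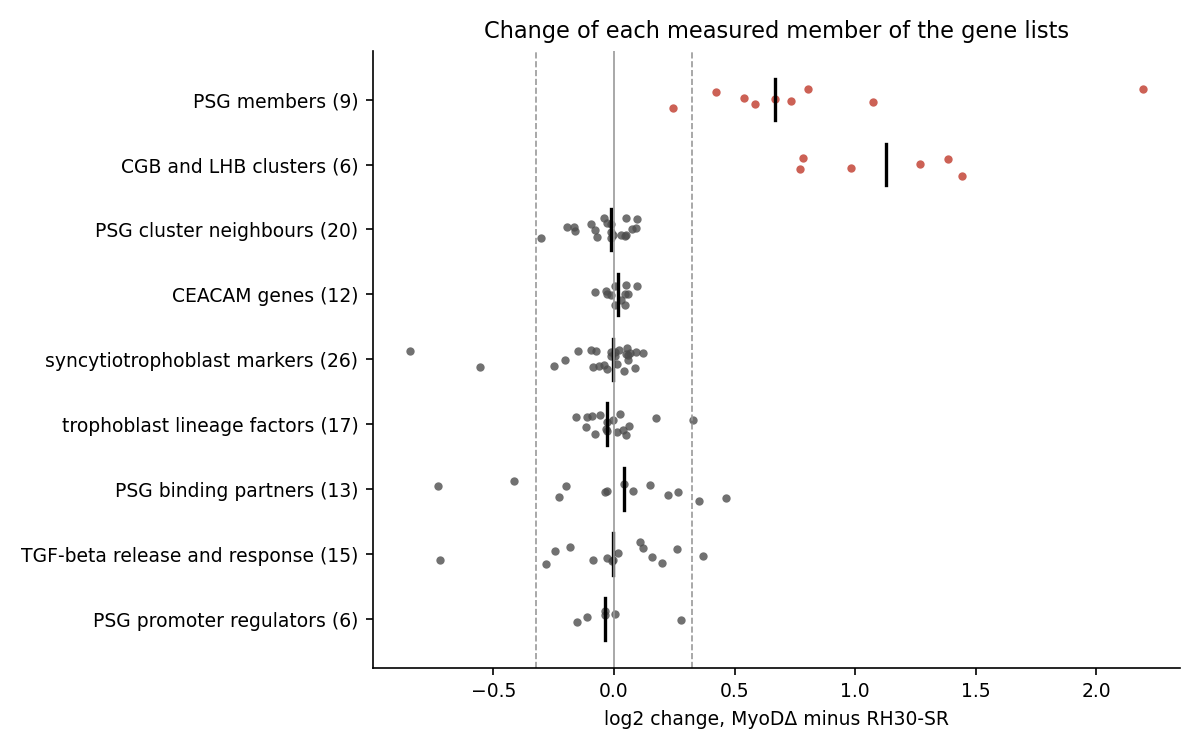
Log2 change from RH30-SR to RH30-SR MyoDΔ (horizontal axis) of every measured member of the lists named on the vertical axis, 1 point per gene or cluster, with black bars for the medians, dashed lines at a 25% change and the number of members in parentheses. The skeletal muscle, fibroblast, leukocyte, endothelial and epithelial lists are not shown. The PSG members (median 0.67) and the CGB and LHB clusters (median 1.13) lie to the right, and the medians of the other 7 lists shown lie between -0.04 and 0.04.

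The genes whose values over the 6 arrays were most like those of PSG5, among 175 genes with a difference of at least 1 on the log2 scale, were SYT16, ARHGAP29, DRAM1, ELL2 and C4BPB. Their Pearson r with PSG5 lay between 0.9979 and 0.9996 across the 6 arrays, which fall into 2 groups, so that these r values mostly restate the difference between the groups. All 5 were higher in RH30-SR MyoDΔ. ARHGAP29 and DRAM1, the latter a lysosomal protein of autophagy, had the largest changes (1.79 and 1.74), and C4BPB, ELL2 and SYT16 had changes of 1.34, 1.06 and 1.04.

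The labelled cell type and other cell types were checked on their markers. MYOD1 itself read 9.09, 9.50 and 9.43 in RH30-SR and 6.95, 7.16 and 6.90 in RH30-SR MyoDΔ (-2.34 ± 0.12, SE, adjusted p = 0.000102), and of 15 skeletal muscle markers 11 were called lower and 1 higher (median -1.53). The largest falls were in CHRNA1 (-3.67), a subunit of the muscle acetylcholine receptor, TNNI1 (-2.91), a slow troponin, and MYOG (-2.70), the muscle factor myogenin. Among markers of other cells, 1 of 9 fibroblast genes was called higher (POSTN, 1.01) and 1 lower (LUM, -1.31), 1 of 7 leukocyte genes higher (CD68, 0.89) and 1 of 6 endothelial genes lower (PECAM1, -0.48, a call lost without any of RH30-SR replicates 1, 2 and 3 or MyoDΔ replicates 1 and 2). Of 6 epithelial genes 0 were called by limma and 2 had an unadjusted p below 0.05, with 0.17 for KRT8 and -0.16 for CLDN4. Over all genes, 2.82% were called higher, 4.20% lower and 7.01% in either direction, and 24.6% had an unadjusted p below 0.05. Nothing is read from single calls in the fibroblast, leukocyte and endothelial lists, which are short. The medians of these 4 lists lay between -0.07 and 0.04, and their summed values ranged from 37.89 to 39.49 in RH30-SR and 37.53 to 37.69 in MyoDΔ for fibroblasts, 28.86 to 29.20 and 29.58 to 29.89 for leukocytes, 25.51 to 26.01 and 24.97 to 25.36 for endothelium, and 29.24 to 29.35 and 29.32 to 29.63 for epithelium. Their part in the PSG values was not tested. In a bulk culture, a rise of PSG RNA in every cell and a high level in few cells cannot be told apart.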

How the data were processed

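The deposited log2 values per transcript cluster of the Affymetrix Human Transcriptome Array were computed by the authors with RMA, which corrects background, forces the arrays to 1 distribution (quantile normalization) and summarises probes, so that a shift common to most transcripts is lost. Affymetrix Expression Console and RMA are named in the submitters' processing notes. Their versions and the genome build are not given in the sources used here. RNA was isolated with TRIzol from cultures in triplicate. The labels number the replicates without saying how they were kept apart, so p-values reflect only how these samples spread, which may be technical. The number of arrays limits the precision, and no background measure or batch was given.

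A second deposited table with the same values was not used. The 65535 clusters lay between 0.91 and 13.82, array medians between 4.27 and 4.31, and correlations between arrays between 0.989 and 0.997. Platform annotation gave 22761 clusters 1 symbol, 1386 several and 41388 none here, and updating through RefSeq (GRCh38.p14) changed 0 symbols. RefSeq also gave the order of genes and the promoters. The files' build is not named, so no coordinates of clusters are given. Where a gene had several clusters, the one with the highest mean was read.

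RH30-SR MyoDΔ was compared with RH30-SR with limma 3.58.1 (R 4.3.3; lmFit, eBayes, two-sided, Benjamini-Hochberg over all clusters, no term but group). Calls needed an adjusted p below 0.05 and a change over 25%. In simulated arrays with 65535 clusters, 17 of 67 clusters changed by 0.4 (log2), 60 of 67 changed by 1 and 63 of 66 changed by 2 were recovered. There were 7 false calls. No other clusters were changed, a far smaller share than the 7.01% of genes called in the data. The adjusted p was therefore stricter there, and the shares recovered do not carry over to the real comparison. Promoters were aligned with Biopython 1.88.

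The members and the gene lists were chosen with earlier results of these data known. The text names all PSG members, MYOD1, per list up to 4 called genes by size of change (or, with none called, the 2 with the highest mean), and the 5 genes most like PSG5; other genes were named as background after their values were seen. The alternatives were 3 further normalizations, a variance trend, array weights, a filter on dim clusters, the replicate number as a block, other fold thresholds, another choice of cluster and each array left out.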

Additional observations from a re-analysis of the deposited data

How the results depend on the processing

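Over 16 alternatives, the change of PSG5 stayed between 2.13 and 2.29 and that of PSG9 between 1.00 and 1.13, and both stayed called. PSG members called higher numbered 2 at a 2-fold threshold and 7 to 8 with 1 array left out, against 8. At 2-fold, 175 genes in all, 0 PSG binding partners, 0 TGF-β genes, 0 syncytiotrophoblast markers, 0 trophoblast lineage factors, 0 leukocyte markers and 0 endothelial markers were called, and 3 of the 6 CGB and LHB clusters, an alternative added after the data were seen. With no fold threshold PSG4 joined the calls (9 members), 1 promoter regulator (KLF6) was called, and 2 TGF-β genes. The TGF-β list also had 2 calls with a variance trend, with array weights and with dim clusters removed. The dim filter, which leaves fewer clusters, left out PSG8 and gave 0 fibroblast and 0 endothelial calls.

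Replicate numbers did not pair the arrays (correlations of same-numbered deviations -0.05, -0.04 and 0.03). With the replicate block, 1165 genes and 7 PSG members were called (PSG11 adjusted p = 0.0763), with 3 PSG binding partners (ITGA5 lost, adjusted p = 0.0594), 0 trophoblast lineage factors and 0 endothelial markers. With 1 array left out, all genes called numbered 1110 to 1376, against 1574; PSG binding partners 2 to 4, TGF-β genes 1 to 2, trophoblast lineage factors 0 to 1 and endothelial markers 0 to 1. The cause of these shifts was not tested. None of the settings reversed the direction of a called gene named here. In RH30-SR, 6 of the 9 members, PSG5 among them, had means below the median of all clusters (4.29), and no background measure was given, so that it is not known whether they were above background.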
